A study of Mus musculus with 12 samples.

Results

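The 34 genes described here are contractile, cytoskeletal and matricellular genes that are known targets of the transcription factor SRF or of the coactivator YAP, or that act beside them. They were taken as a list of named genes, each represented by its brightest probe set, and all 34 were measured among the 19938 genes of the array table. The members were selected on gene function and on measured values: the list was drawn up after the response of 6 of them (Acta2, Myl9, Ccn1, Ccn2, Ankrd1 and Thbs1) to red blood cells (RBC), averaged over both macrophage diets, and its difference between the macrophage diets had been seen. Those contrasts are therefore given as a description, without tests, and support nothing about the list. Tests are given for contrasts orthogonal to those: the diet of the RBC donor, and the diet of the macrophage donor averaged over the 3 RBC conditions. The levels of those 6 genes in both macrophage diets were known when the list was made, so the macrophage-diet results are not independent of the choice either. A gene that is low only in unexposed chow macrophages differs in its RBC response and also in the averaged macrophage diet. For those 6 genes the macrophage-diet difference is therefore given without p. The adjusted p of the other genes in that contrast are to be read with the same limit.

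The cells were peritoneal macrophages that had been drawn into the peritoneum with thioglycollate, an irritant broth, and washed out of C57BL/6 mice. From the age of 6 weeks the donors had eaten chow or a high-fat diet, in both cases over 12 weeks. In culture the macrophages were given RBC of chow-fed mice, RBC of high-fat-fed mice or no RBC, to let them engulf the RBC (erythrophagocytosis). This gave 6 groups of 2 Affymetrix Mouse Gene 1.0 ST arrays, 12 in all. Every group therefore came from thioglycollate-elicited cells of 1 mouse strain, and resident macrophages and other strains were not represented. The labels number the animals 1 and 2 in each group and do not say whether the same number is the same animal. The groups without RBC are called unexposed below, and chow and high-fat macrophages are named for the diet of their own donor.

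SRF binds the CArG box in promoters, and its cofactors of the MRTF family enter the nucleus when free actin monomers are used up by filament formation. YAP and its relative TAZ bind DNA through the TEAD proteins and are held out of the nucleus by the LATS kinases of the Hippo pathway. Both routes respond to cell shape and tension, share many targets, and are best known from smooth muscle cells and myofibroblasts, where smooth muscle actin, transgelin and calponin are defining products. Macrophages use the same actin machinery to spread and to engulf particles.

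The macrophage markers Cd68 and Lyz2 lay between 12.09 and 12.45 on all 12 arrays on the deposited log2 scale. Of the other macrophage markers some were lower and some higher in unexposed high-fat than in unexposed chow cells. Cd14 lay at 10.47 and 10.39 in unexposed chow and at 8.87 and 8.35 in unexposed high-fat macrophages, Adgre1 at 10.08 and 10.21 and at 9.03 and 8.93, and Csf1r at 10.61 and 10.69 and at 9.77 and 9.91. Timd4 was lower too, at 4.92 and 4.96 and at 4.28 and 4.27. Higher in the high-fat cells were Mertk, at 7.53 and 7.53 and at 7.86 and 8.21, Gata6, at 6.50 and 6.54 and at 6.96 and 6.84, and Itgam, at 10.15 and 10.16 and at 10.39 and 10.52. The 2 arrays of a group correlated at r of 0.994 to 0.997 over all genes, with the loosest pair in the unexposed high-fat macrophages, whose median gap between arrays was 0.16 against 0.09 to 0.12 in the other groups. Having 2 arrays per group limits the precision, and the p-values measure only the spread between the arrays of a group. A p-value is from limma, a linear model over all genes, adjusted by Benjamini-Hochberg over the 19938 genes of a contrast, and a gene was called at an adjusted p below 0.05. Values are log2 signals, differences are log2 differences, and ± gives the standard error of the limma estimate. Signals of different probe sets have different scales, so genes are not ranked against each other by level.

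RefSeq promoter sequence (build GRCm38.p6, the 250 bases before each annotated start) was at hand for 28 of the 34 genes, and was searched for the letters of both binding motifs. Some genes have several annotated starts, so these genes had 33 windows, and a gene was counted if any of its windows held a match. The windows of Myl9 (chr2:156775214-156775463, plus strand), Srf (chr17:46556163-46556412, minus strand), Vcl (chr14:20929148-20929397, plus strand), Acta2 (chr19:34255374-34255623, minus strand), Ccn1 (chr3:145649986-145650235, minus strand) and Ankrd1 (chr19:36119845-36120094, minus strand) are shown 5′ to 3′ on the gene's strand, as examples of each motif, picked after the matches and the values were seen. Capitals mark a CArG box (CC, then 6 bases that are A or T, then GG) or GGAATG, the core letters bound by TEAD proteins, read on either strand.
Myl9: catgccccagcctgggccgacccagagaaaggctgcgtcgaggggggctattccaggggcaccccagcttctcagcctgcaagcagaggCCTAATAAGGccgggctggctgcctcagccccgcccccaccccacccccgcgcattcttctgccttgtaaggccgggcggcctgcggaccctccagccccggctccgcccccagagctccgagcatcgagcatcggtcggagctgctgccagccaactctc
Srf: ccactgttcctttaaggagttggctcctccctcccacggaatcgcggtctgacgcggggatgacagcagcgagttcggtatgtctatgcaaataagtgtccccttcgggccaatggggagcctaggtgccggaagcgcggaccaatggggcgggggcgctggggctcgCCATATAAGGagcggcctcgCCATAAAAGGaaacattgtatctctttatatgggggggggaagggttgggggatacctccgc
Vcl: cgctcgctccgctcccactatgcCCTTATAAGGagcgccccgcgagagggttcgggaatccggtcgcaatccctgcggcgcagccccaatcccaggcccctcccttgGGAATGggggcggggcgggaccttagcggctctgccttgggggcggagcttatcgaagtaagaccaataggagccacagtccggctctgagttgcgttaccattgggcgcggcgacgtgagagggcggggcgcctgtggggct
Acta2: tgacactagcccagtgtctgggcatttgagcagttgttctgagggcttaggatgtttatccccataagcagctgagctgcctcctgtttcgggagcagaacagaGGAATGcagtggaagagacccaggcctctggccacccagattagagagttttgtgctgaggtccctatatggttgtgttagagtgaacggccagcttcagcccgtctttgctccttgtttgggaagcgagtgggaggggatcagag
Ccn1: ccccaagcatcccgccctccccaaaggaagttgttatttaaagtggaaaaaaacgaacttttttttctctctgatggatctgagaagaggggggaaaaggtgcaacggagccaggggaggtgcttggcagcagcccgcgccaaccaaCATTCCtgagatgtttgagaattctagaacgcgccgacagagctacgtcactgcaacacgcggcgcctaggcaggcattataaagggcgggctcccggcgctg
Ankrd1: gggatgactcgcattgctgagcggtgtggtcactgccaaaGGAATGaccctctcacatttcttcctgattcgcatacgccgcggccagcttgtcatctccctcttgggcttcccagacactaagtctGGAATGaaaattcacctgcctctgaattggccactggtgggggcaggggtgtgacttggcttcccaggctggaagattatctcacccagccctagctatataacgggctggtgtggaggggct

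A CArG box was found in 7 of the 28 genes with a window (Myl9, Cnn2, Vcl, Srf, Fhl1, Fhl2 and Filip1l). Of all 27025 genes with such windows, 1.62% held one. In Myl9 it began 161 bases before the start, in Cnn2 56 and in Fhl1 102 bases before it, and Srf held a pair that began 82 and 62 bases before the start. Fhl1 and Filip1l each had another annotated start whose window held no CArG box. GGAATG was found in 10 of the 28 genes (Acta2, Ccn1, Ankrd1, Tpm1, Vcl, Flna, Amotl2, Ajuba, Crim1 and Lmod1), against 14.4% of all genes. It began 146 bases before the start in Acta2, 103 in Ccn1, and 210 and 123 in Ankrd1. Vcl alone held both, no matches of the 2 motifs overlapped, and 12 genes held neither. Ccn2, Thbs1, Tagln, Actg2, Col1a1 and Tead1 were not searched. The search allowed only A or T inside the CArG box. The Acta2 window held ccctatatgg and ccttgtttgg, each with another letter inside, and these were not counted. A match in the letters is not a binding site, and the lack of a match does not show that a site is absent. Because the genes were listed as targets of SRF or YAP, the shares with a match depend on that choice, and nothing is read from them.

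Exposure of chow macrophages to RBC came with higher signal of most of the genes. Myl9 was higher by 2.79 ± 0.11, Ccn2 by 2.38 ± 0.14, Acta2 by 2.26 ± 0.11, Ankrd1 by 2.17 ± 0.13, Ccn1 by 1.99 ± 0.11, Tagln by 1.91 ± 0.10 and Thbs1 by 1.76 ± 0.09. In high-fat macrophages these genes already lay higher without RBC, except that Thbs1 was close to its chow level, and the differences with RBC were smaller, from 0.47 for Acta2 to 1.33 for Thbs1. Over all 34 genes the median difference with RBC was 0.61 in chow and 0.24 in high-fat macrophages, where the median of all 19938 genes was -0.03 and -0.00. Past the threshold lay 21 higher and 2 lower (Cav1 and Filip1l) in chow macrophages, 8 higher in high-fat macrophages, and 20 higher in the average of the macrophage diets, 13 of them by at least 1.5-fold. The share of all genes past it was 8.22% higher and 4.51% lower in chow macrophages, 0.878% higher in high-fat macrophages and 5.23% higher in the average, 0.647% by at least 1.5-fold. The response in high-fat macrophages minus that in chow macrophages had a median of -0.41, with 13 genes lower and 2 higher past the threshold, against 3.1% and 2.57% of all genes. Because the genes were picked with these contrasts in view, nothing is read from these counts. Without replicate 1 of the unexposed high-fat macrophages the count of 8 dropped to 4, with Myl9, Ankrd1, Tagln and Cav1 no longer past the threshold, and without replicate 2 of that group it was 11.

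**Figure D1:**
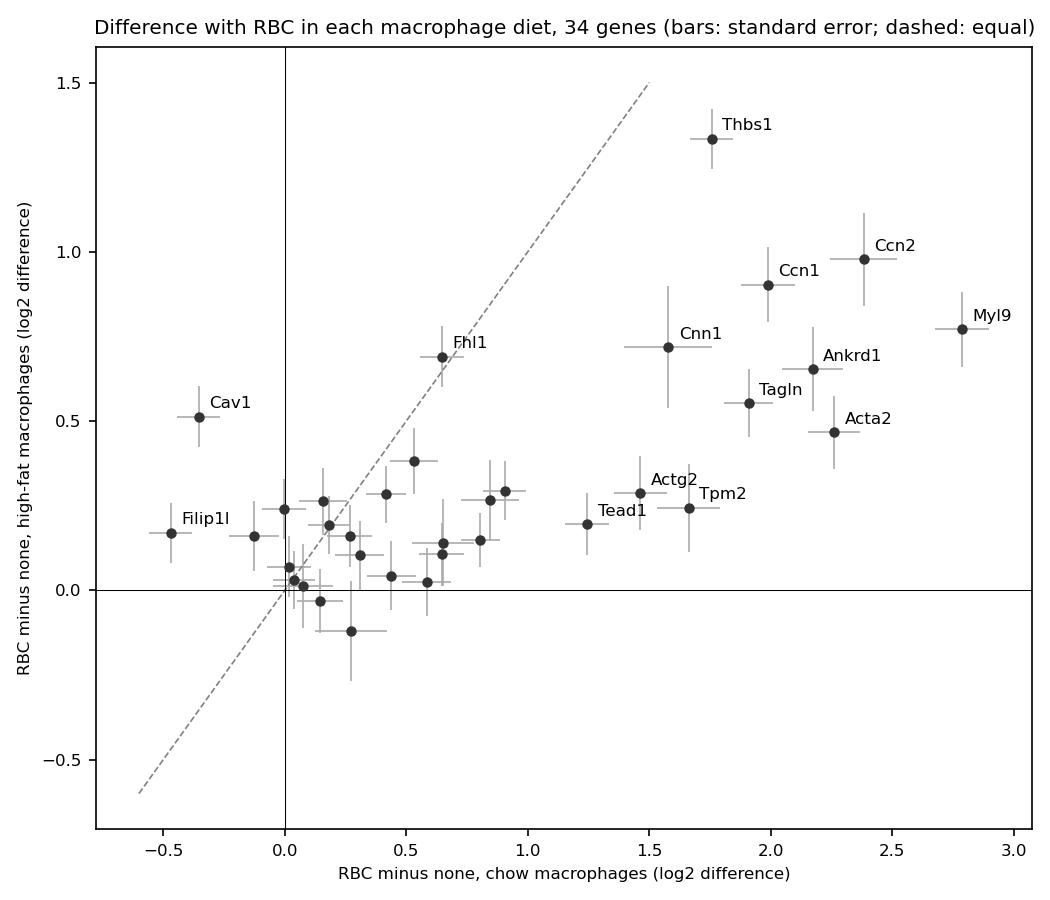
Each point is 1 of the 34 genes, with the log2 difference between RBC-exposed and unexposed chow macrophages on the horizontal axis and the same difference in high-fat macrophages on the vertical axis; bars are standard errors of the limma estimate and the dashed line marks equal differences. Most genes with large differences lie to the right of the line, with Myl9 at 2.79 and 0.77 and Acta2 at 2.26 and 0.47, while Fhl1 lies near it at 0.65 and 0.69 and Cav1 lies left of 0.

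The unexposed chow macrophages stood apart from the other 5 groups. In 28 of the 34 genes they had the lowest group mean, as in 25% of all genes. In 24 genes both unexposed chow arrays lay below all 10 other arrays, as in 12.1% of all genes, and in 2 (Cav1 and Filip1l) they lay above all of them, as in 8.9%. All 4 exposed arrays lay above both unexposed arrays of the same macrophage diet for 25 genes in chow macrophages (20.2% of all genes) and for 19 in high-fat macrophages (8.87%). They lay below for 3 genes in chow macrophages (Cav1, Filip1l and Lmod1; 20.6% of all genes) and for none in high-fat macrophages (8% of all genes). The choice of the genes bears on all these counts.

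High-fat macrophages, averaged over the 3 RBC conditions, had higher signal than chow macrophages for 20 of the 34 genes and lower signal for 2, and 12 did not pass the test. Of all genes 6.92% were higher and 6.36% lower in this comparison. The levels of 6 of the genes were known when the list was made. The counts include these 6 genes and are not independent of the choice. The genes with the largest differences were Ankrd1 at 1.11 ± 0.08, Acta2 at 0.91 ± 0.07, Myl9 at 0.87 ± 0.07, Tagln at 0.81 ± 0.07, Ccn2 at 0.81 ± 0.09 and Ccn1 at 0.78 ± 0.07, and, in the other direction, Cav1 at -2.06 ± 0.06. The median over the 34 genes was 0.29, where that of all genes was 0.00. The median was 0.48 without and 0.19 with RBC, a split that the choice of the genes bears on and from which nothing is read. A minimum difference of 1.5-fold left 8 higher genes (the 6 above, Tpm2 and Tead1) and Cav1 lower, against 0.567% of all genes higher and 1.34% lower.

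**Figure D2:**
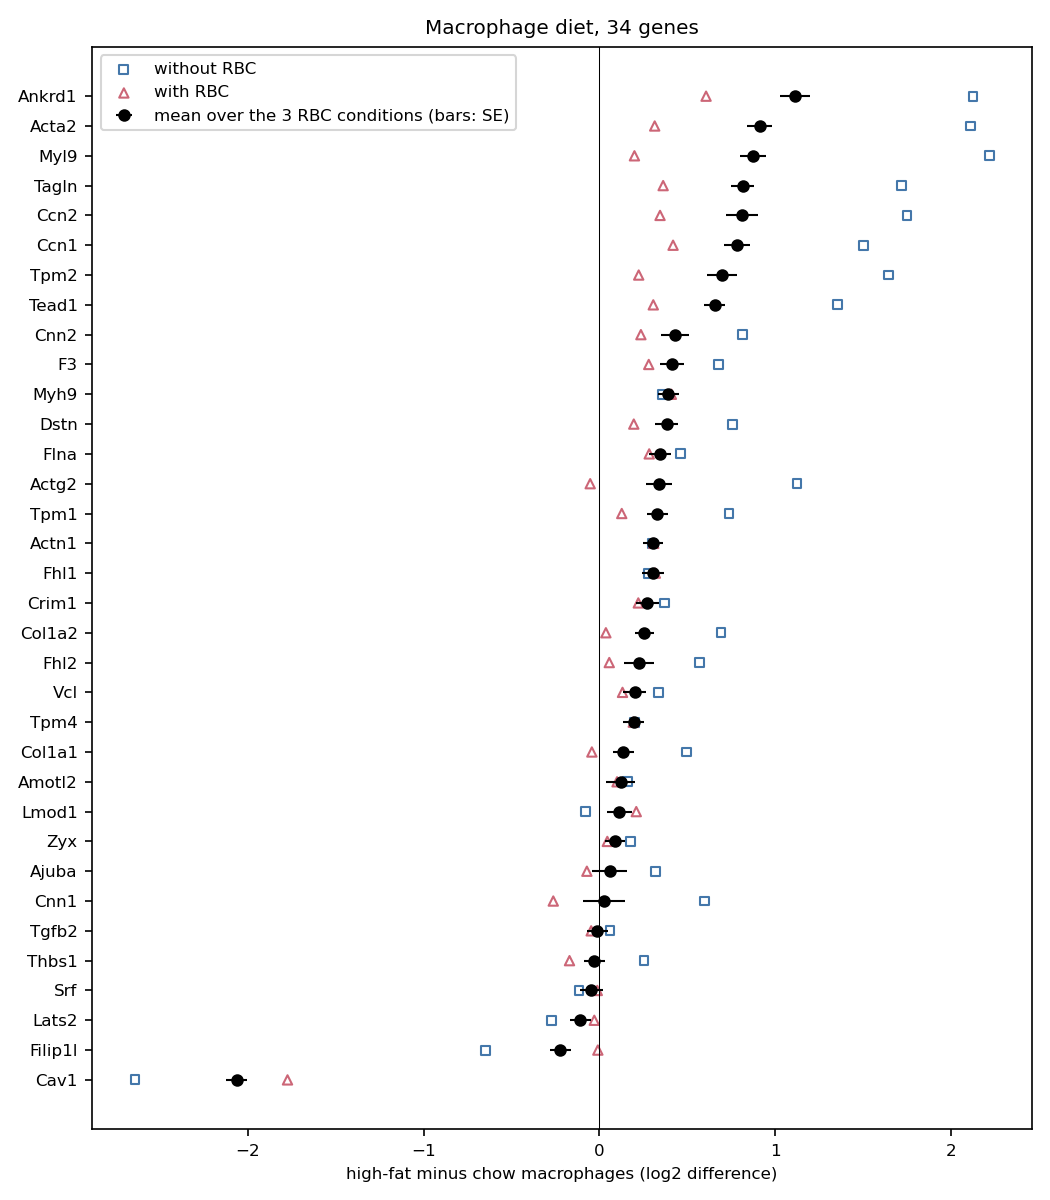
The log2 difference between high-fat and chow macrophages (horizontal axis) is plotted for each of the 34 genes (rows); filled circles with standard-error bars are the mean over the 3 RBC conditions, squares the difference without RBC and triangles the difference with RBC. Squares lie far to the right of triangles for Ankrd1, Acta2, Myl9, Tagln and Ccn2, for example at 2.22 and 0.20 for Myl9, whereas those of Cav1 lie at -2.64 and -1.77 and those of Myh9 lie close together at 0.36 and 0.41.

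The secreted matricellular proteins come first by role. Ccn1 and Ccn2 (formerly Cyr61 and Ctgf) are matrix-associated signalling proteins and textbook YAP targets. In chow macrophages Ccn1 lay at 7.01 and 6.79 without RBC, 8.75 and 9.01 with chow RBC and 8.75 and 9.04 with high-fat RBC. Its high-fat arrays lay at 8.32 and 8.49 without RBC, 9.39 and 9.35 with chow RBC and 9.21 and 9.27 with high-fat RBC. Both unexposed chow arrays were far under every other array, and the unexposed high-fat arrays lay between them and the exposed ones. With RBC Ccn1 was 3.97-fold higher in chow and 1.87-fold higher in high-fat macrophages. Its average difference between the macrophage diets was 0.78 ± 0.07, being 1.503 without and 0.42 with RBC.

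For Ccn2 the chow macrophages lay at 6.98 and 6.92 without RBC, 9.24 and 9.41 with chow RBC and 9.15 and 9.54 with high-fat RBC. The high-fat macrophages lay at 8.43 and 8.97 without RBC, 9.81 and 9.79 with chow RBC and 9.51 and 9.60 with high-fat RBC. The order of the groups was that of Ccn1, and the unexposed high-fat arrays lay further from each other than the arrays of any other group. Exposure came with a difference of 2.38 ± 0.14 in chow and 0.98 ± 0.14 in high-fat macrophages. The macrophage diets differed by 0.81 ± 0.09 on average.

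Thbs1, thrombospondin, binds matrix and activates latent TGF-beta. Its chow arrays lay at 8.63 and 8.63 without RBC, 10.39 and 10.37 with chow RBC and 10.35 and 10.44 with high-fat RBC. High-fat macrophages lay at 8.78 and 8.99 without RBC, 10.20 and 10.35 with chow RBC and 10.19 and 10.14 with high-fat RBC. Both unexposed groups were low and all exposed groups high, with no overlap. Its average difference between macrophage diets was -0.03 ± 0.06. The differences with RBC were 1.76 ± 0.09 in chow and 1.33 ± 0.09 in high-fat macrophages, the largest of the 34 genes in high-fat macrophages.

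Among the other secreted and surface proteins, tissue factor F3, which starts coagulation, lay in chow macrophages at 5.85 and 5.46 without RBC, 6.17 and 6.17 with chow RBC and 6.000 and 6.03 with high-fat RBC. The high-fat cells were at 6.27 and 6.38 without RBC, 6.31 and 6.34 with chow RBC and 6.38 and 6.46 with high-fat RBC. Every high-fat array was above every chow array, as for 3 of the 34 genes (F3, Flna and Myh9) and 2.67% of all genes. The difference was 0.41 ± 0.07 (adjusted p = 7.9e-04). Crim1, a membrane protein that binds growth factors of the BMP family, lay at 6.16 and 6.38 without RBC, 6.71 and 6.84 with chow RBC and 6.82 and 6.83 with high-fat RBC in chow macrophages. It lay at 6.50 and 6.78 without RBC, 7.06 and 7.05 with chow RBC and 6.98 and 6.99 with high-fat RBC in high-fat macrophages. The exposed high-fat arrays were the highest and replicate 1 of the unexposed chow group the lowest, and the macrophage diets differed by 0.27 ± 0.07 (adjusted p = 0.0124).

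The chains of type I collagen, the main fibrillar collagen of scar and tendon, moved over a narrower range. Col1a2 in chow macrophages lay at 6.79 and 6.93 without RBC, 7.61 and 7.59 with chow RBC and 7.69 and 7.76 with high-fat RBC. High-fat macrophages gave values of 7.52 and 7.58 without RBC, 7.73 and 7.72 with chow RBC and 7.70 and 7.65 with high-fat RBC. The unexposed chow arrays stood well below the other 10. Its macrophage-diet difference of 0.26 ± 0.05 (adjusted p = 0.00494) was 0.69 without and 0.04 with RBC. Col1a1 lay at 6.88 and 6.82 without RBC, 7.47 and 7.45 with chow RBC and 7.39 and 7.67 with high-fat RBC in chow macrophages. In high-fat macrophages its levels were 7.43 and 7.26 without RBC, 7.50 and 7.47 with chow RBC and 7.42 and 7.42 with high-fat RBC. It followed the same pattern with a smaller difference between macrophage diets, 0.14 ± 0.06, which did not pass (adjusted p = 0.193). Tgfb2, a TGF-beta ligand, ranged from 5.19 to 5.59 over all arrays, and its difference between macrophage diets was -0.01 ± 0.06 (adjusted p = 0.946).

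Of the contractile proteins, smooth muscle actin Acta2, the defining product of myofibroblasts, lay in chow macrophages at 7.31 and 7.38 without RBC, 9.57 and 9.61 with chow RBC and 9.56 and 9.68 with high-fat RBC. In high-fat macrophages it lay at 9.24 and 9.67 without RBC, 9.997 and 9.99 with chow RBC and 9.89 and 9.80 with high-fat RBC. The unexposed chow cells were far below all others, and replicate 2 of the unexposed high-fat cells reached the level of the exposed chow arrays. With RBC Acta2 was 4.79-fold higher in chow and 1.38-fold higher in high-fat macrophages. The macrophage diets differed by 0.91 ± 0.07 on average, by 2.11 without and 0.31 with RBC.

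Myl9, the regulatory light chain of smooth muscle and nonmuscle myosin whose CArG-bearing promoter is shown above, had the largest difference of the 34 genes with RBC in chow macrophages. Its chow arrays lay at 5.004 and 5.20 without RBC, 7.79 and 7.96 with chow RBC and 7.78 and 8.02 with high-fat RBC. Its high-fat arrays lay at 7.23 and 7.41 without RBC, 8.31 and 8.15 with chow RBC and 7.82 and 8.08 with high-fat RBC. Exposed arrays of both diets overlapped, while the unexposed groups lay 2.22 apart. The macrophage-diet difference was 0.87 ± 0.07 on average.

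Tagln, transgelin, an actin-bundling protein of smooth muscle, lay in chow macrophages at 5.95 and 5.84 without RBC, 7.72 and 7.91 with chow RBC and 7.74 and 7.86 with high-fat RBC. The high-fat cells were at 7.46 and 7.77 without RBC, 8.22 and 8.17 with chow RBC and 8.12 and 8.17 with high-fat RBC. Its groups kept the broad order of Acta2, from unexposed chow through unexposed high-fat and exposed chow to exposed high-fat cells. The macrophage diets differed by 0.81 ± 0.07 (adjusted p = 1.2e-06). Actg2, the enteric smooth muscle actin, lay at 4.12 and 4.32 without RBC, 5.70 and 5.82 with chow RBC and 5.49 and 5.74 with high-fat RBC in chow macrophages. It lay at 5.35 and 5.34 without RBC, 5.54 and 5.83 with chow RBC and 5.67 and 5.50 with high-fat RBC in high-fat macrophages. Only the unexposed chow arrays were far from the rest, and with RBC the macrophage diets overlapped. Its average difference of 0.34 ± 0.07 (adjusted p = 0.0055) was 1.12 without and -0.05 with RBC. Actins share much of their coding sequence, and cross-hybridisation between their probe sets cannot be judged from these values.

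The tropomyosins, rod-like proteins along the actin filament, divided by gene. Tpm2, the muscle beta form, lay in chow macrophages at 5.63 and 6.06 without RBC, 7.55 and 7.43 with chow RBC and 7.36 and 7.69 with high-fat RBC. High-fat macrophages gave values of 7.46 and 7.51 without RBC, 7.80 and 7.75 with chow RBC and 7.83 and 7.54 with high-fat RBC. The unexposed chow arrays alone were low, and the average macrophage-diet difference was 0.70 ± 0.09 (adjusted p = 7.2e-05). Tpm1, the alpha form, lay at 8.86 and 8.97 without RBC, 9.80 and 9.81 with chow RBC and 9.79 and 9.87 with high-fat RBC in chow macrophages. In high-fat macrophages it lay at 9.54 and 9.76 without RBC, 9.99 and 10.002 with chow RBC and 9.86 and 9.94 with high-fat RBC. It kept the order of Tpm2 over a smaller range, with a macrophage-diet difference of 0.33 ± 0.06 (adjusted p = 0.00135). Tpm4, a cytoskeletal form, lay in chow macrophages at 10.39 and 10.46 without RBC, 10.56 and 10.43 with chow RBC and 10.43 and 10.42 with high-fat RBC. Its high-fat arrays lay at 10.54 and 10.70 without RBC, 10.65 and 10.77 with chow RBC and 10.57 and 10.63 with high-fat RBC. It showed little difference with RBC (0.04 and 0.03 in chow and high-fat macrophages), and a macrophage-diet difference of 0.19 ± 0.06 that passed (adjusted p = 0.0373) but did not in 9 of the 12 fits that each left out 1 array (adjusted p up to 0.112).

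The calponins restrain actomyosin. Cnn1, the smooth muscle form, lay in chow macrophages at 5.09 and 4.38 without RBC, 6.59 and 6.18 with chow RBC and 6.19 and 6.28 with high-fat RBC. The high-fat cells were at 5.17 and 5.49 without RBC, 6.03 and 6.12 with chow RBC and 5.80 and 6.24 with high-fat RBC. The unexposed chow arrays lay far from each other, and exposed arrays of both diets lay above their unexposed ones. The macrophage-diet difference of Cnn1 was 0.02 ± 0.12 (adjusted p = 0.94). Cnn2, a broadly expressed form with a CArG match in its promoter, lay at 7.27 and 7.12 without RBC, 8.07 and 8.07 with chow RBC and 7.89 and 8.11 with high-fat RBC in chow macrophages. It lay at 7.77 and 8.24 without RBC, 8.26 and 8.31 with chow RBC and 8.22 and 8.31 with high-fat RBC in high-fat macrophages. Its unexposed high-fat arrays overlapped the exposed ones, and the macrophage diets differed by 0.43 ± 0.08 (adjusted p = 0.00186). Lmod1, leiomodin, an actin nucleator of smooth muscle, ranged from 4.80 to 5.35 over the 12 arrays, with a macrophage-diet difference of 0.11 ± 0.07 (adjusted p = 0.362).

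**Figure D3:**
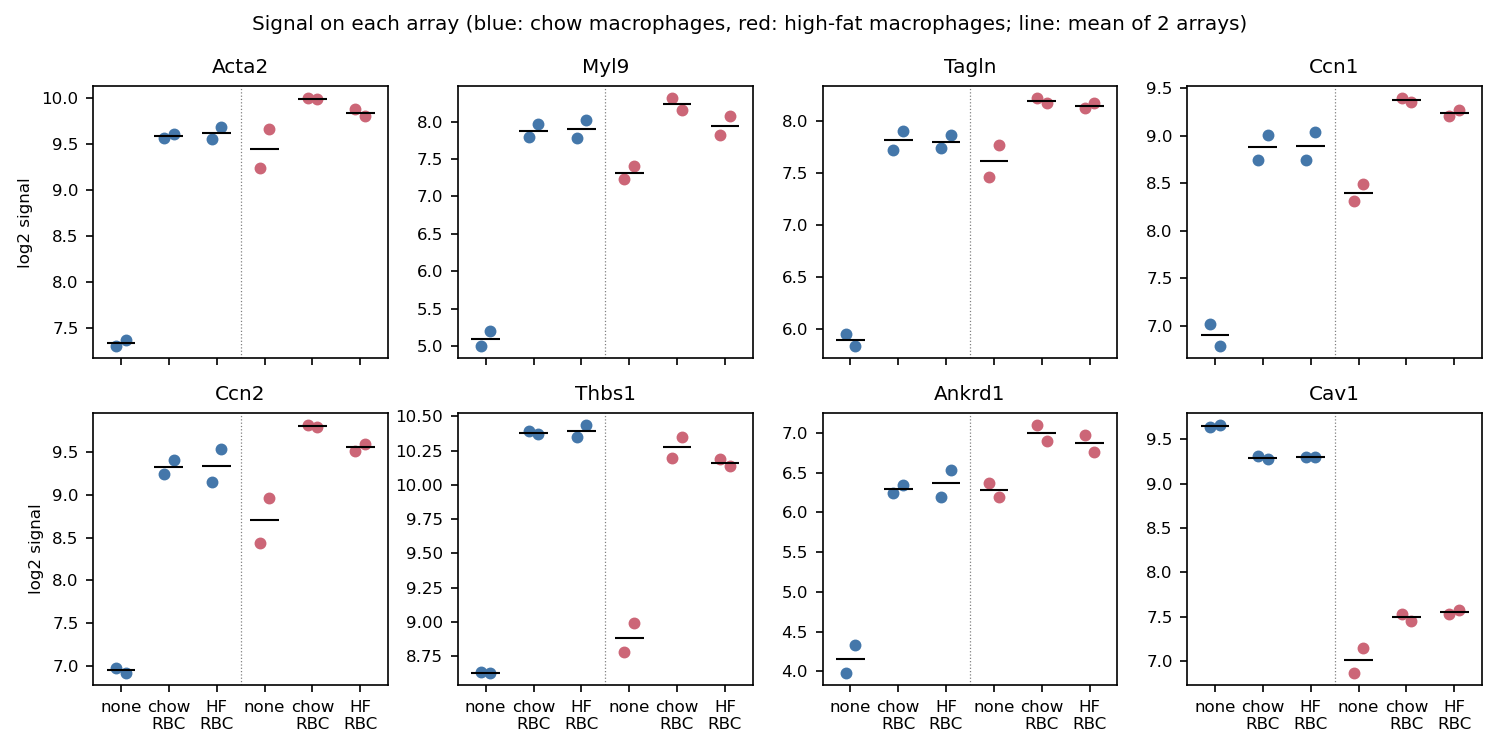
Each dot is the log2 signal of 1 gene on 1 array (2 per group), with chow macrophages in blue and high-fat macrophages in red, the RBC condition on the horizontal axis, and a line at the group mean; each panel has its own vertical scale. The unexposed chow arrays are the lowest in Acta2, Myl9, Tagln, Ccn1, Ccn2 and Ankrd1, the exposed arrays of both diets lie close together in Thbs1, and Cav1 separates the macrophage diets, with chow arrays at 9.27 to 9.66 and high-fat arrays at 6.87 to 7.57.

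Among the proteins that crosslink actin or anchor it at adhesions, Myh9, nonmuscle myosin heavy chain, lay in chow macrophages at 8.99 and 9.09 without RBC, 9.03 and 8.95 with chow RBC and 9.16 and 9.09 with high-fat RBC. High-fat macrophages gave values of 9.48 and 9.31 without RBC, 9.50 and 9.58 with chow RBC and 9.48 and 9.31 with high-fat RBC. All high-fat arrays were above all chow arrays and RBC exposure made little difference (0.02 and 0.07). The macrophage-diet difference was 0.39 ± 0.06 (adjusted p = 4.3e-04). A dimmer second probe set for Myh9 differed by 0.14 and correlated with the brighter one at only r = 0.12 over the arrays. Flna, filamin A, a large actin crosslinker, lay at 9.29 and 9.25 without RBC, 9.48 and 9.32 with chow RBC and 9.47 and 9.41 with high-fat RBC in chow macrophages. In high-fat macrophages it lay at 9.59 and 9.87 without RBC, 9.78 and 9.83 with chow RBC and 9.58 and 9.62 with high-fat RBC. It too separated the macrophage diets without overlap, by 0.34 ± 0.06 (adjusted p = 0.00179). Actn1, alpha-actinin, lay at 9.46 and 9.61 without RBC, 9.62 and 9.67 with chow RBC and 9.78 and 9.80 with high-fat RBC in chow macrophages. It lay at 9.75 and 9.92 without RBC, 10.04 and 10.12 with chow RBC and 9.95 and 10.004 with high-fat RBC in high-fat macrophages. Its macrophage diets differed by 0.31 ± 0.06 (adjusted p = 0.00216), by about the same amount without and with RBC (0.30 and 0.31).

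Zyx, zyxin, which marks mature adhesions, lay in chow macrophages at 9.26 and 9.33 without RBC, 9.69 and 9.74 with chow RBC and 9.68 and 9.75 with high-fat RBC. Its high-fat arrays lay at 9.40 and 9.56 without RBC, 9.80 and 9.83 with chow RBC and 9.66 and 9.75 with high-fat RBC. Exposed arrays were above unexposed ones in both diets, and the diets overlapped, with a difference of 0.09 ± 0.06 (adjusted p = 0.383). Vcl, vinculin, which links adhesions to actin and whose promoter held both motifs, ranged from 8.34 to 8.98 over all arrays, and its macrophage-diet difference of 0.20 ± 0.07 did not pass (adjusted p = 0.0717). Dstn, destrin, which severs actin filaments, lay at 9.49 and 9.22 without RBC, 9.96 and 9.99 with chow RBC and 9.94 and 9.87 with high-fat RBC in chow macrophages. It lay at 9.98 and 10.25 without RBC, 10.08 and 10.19 with chow RBC and 10.12 and 10.16 with high-fat RBC in high-fat macrophages. The unexposed chow arrays were the lowest, the unexposed high-fat arrays lay on either side of the exposed high-fat arrays, and the macrophage diets differed by 0.38 ± 0.07 (adjusted p = 0.00131).

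The LIM-domain proteins Fhl1 and Fhl2 act as scaffolds for signalling and transcription factors in muscle. Fhl1 in chow macrophages lay at 4.38 and 4.41 without RBC, 4.99 and 5.26 with chow RBC and 4.98 and 4.95 with high-fat RBC. The high-fat cells were at 4.65 and 4.70 without RBC, 5.48 and 5.44 with chow RBC and 5.21 and 5.32 with high-fat RBC. Exposed arrays exceeded unexposed ones by similar amounts in the macrophage diets, 0.65 ± 0.09 and 0.69 ± 0.09. Its macrophage-diet difference was 0.30 ± 0.06 (adjusted p = 0.00326). Fhl2 lay in chow macrophages at 5.05 and 5.25 without RBC, 5.63 and 5.96 with chow RBC and 5.64 and 5.98 with high-fat RBC. Its levels in high-fat macrophages were 5.74 and 5.69 without RBC, 6.08 and 5.86 with chow RBC and 5.62 and 5.88 with high-fat RBC. Fhl2 was lowest in the unexposed chow arrays and its unexposed and exposed high-fat arrays overlapped, and the macrophage-diet difference of 0.23 ± 0.09 did not pass (adjusted p = 0.105).

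Cav1 and Filip1l ran against the rest. Cav1, caveolin, which coats the membrane pits called caveolae, lay in chow macrophages at 9.64 and 9.66 without RBC, 9.31 and 9.27 with chow RBC and 9.30 and 9.30 with high-fat RBC. High-fat macrophages gave values of 6.87 and 7.15 without RBC, 7.54 and 7.46 with chow RBC and 7.53 and 7.57 with high-fat RBC. It was the one gene of the 34 with all high-fat arrays below all chow arrays, as in 3.09% of all genes, and its macrophage-diet difference of -2.06 ± 0.06 (adjusted p = 4.3e-11) corresponds to a ratio of 0.239. With RBC it was lower in chow macrophages (-0.35 ± 0.09) and higher in high-fat macrophages (0.51 ± 0.09). Filip1l, a filamin-binding protein, lay at 8.75 and 8.70 without RBC, 8.31 and 8.44 with chow RBC and 8.09 and 8.18 with high-fat RBC in chow macrophages. It lay at 7.99 and 8.17 without RBC, 8.11 and 8.22 with chow RBC and 8.36 and 8.29 with high-fat RBC in high-fat macrophages. Its macrophage-diet difference of -0.22 ± 0.06 (adjusted p = 0.0217) was -0.65 without and -0.01 with RBC. The call for Filip1l was lost in 5 of 12 fits that left out an array and when its probe sets were averaged (adjusted p = 0.274). Its dimmer second probe set differed by 0.003 between macrophage diets and correlated with the brighter one at r = 0.27 over the arrays.

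The nuclear factors and Hippo components among the 34 genes ranged from Ankrd1, with a large difference, to genes at near-level signal. Ankrd1, a nuclear ankyrin-repeat protein and YAP target, lay in chow macrophages at 3.98 and 4.33 without RBC, 6.24 and 6.34 with chow RBC and 6.20 and 6.54 with high-fat RBC. In high-fat macrophages it lay at 6.37 and 6.19 without RBC, 7.10 and 6.90 with chow RBC and 6.98 and 6.76 with high-fat RBC. The high-fat arrays exceeded the chow arrays of the same RBC condition throughout. The macrophage-diet difference was 1.11 ± 0.08 on average, 2.12 without and 0.61 with RBC. Tead1, a DNA-binding partner of YAP, lay at 5.85 and 5.98 without RBC, 7.14 and 7.11 with chow RBC and 7.15 and 7.24 with high-fat RBC in chow macrophages. It lay at 7.34 and 7.20 without RBC, 7.59 and 7.38 with chow RBC and 7.48 and 7.41 with high-fat RBC in high-fat macrophages. Only the unexposed chow arrays were low, and the macrophage diets differed by 0.66 ± 0.06 (adjusted p = 3.7e-06). A dimmer second Tead1 probe set differed by 0.34 between macrophage diets and correlated with the brighter one at r = 0.91 over the arrays, a description of 2 measures on shared arrays.

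Srf itself, with its pair of CArG boxes, ranged from 7.18 to 7.65, and its macrophage-diet difference was -0.05 ± 0.07 (adjusted p = 0.749). The YAP targets Amotl2 and Ajuba, which bind Hippo components, ranged from 4.94 to 5.45 and from 4.50 to 5.30. Lats2, the kinase that phosphorylates YAP and is also its target, ranged from 6.23 to 6.71. These 4 genes passed the threshold neither with RBC nor between macrophage diets, where adjusted p was 0.437 for Amotl2, 0.796 for Ajuba and 0.293 for Lats2. The list therefore joined contractile genes, CCN genes and Ankrd1 with large differences to these genes at near-level signal.

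The diet of the RBC donor made no called difference to any of the 34 genes. Averaged over macrophage diets, high-fat minus chow RBC gave a median difference of -0.04, the range of the estimates was from -0.17 for Fhl1 to 0.16 for Ajuba, and 0 of 34 passed limma's test, with 0.01% of all genes called. No other tool was run. At an unadjusted p below 0.05 there was 1 gene of the 34, Fhl1 (-0.17 ± 0.07), and 3.15% of all genes. For Myl9 the difference was -0.13 ± 0.09, for Acta2 -0.06 ± 0.09, for Ccn2 -0.11 ± 0.11, for Ccn1 -0.06 ± 0.09, for Ankrd1 -0.03 ± 0.10 and for Thbs1 -0.05 ± 0.07, with adjusted p of 0.9998 for each. The 95% intervals of all 34 genes lay between -0.42 (Cnn1) and 0.42 (Ajuba), so that a 1.5-fold difference (0.585 on the log2 scale) lay outside every interval.

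Within chow macrophages 0 of 34 genes were called between high-fat and chow RBC (0% of all genes), and 3 had an unadjusted p below 0.05 (Ajuba at 0.41 ± 0.17, Tgfb2 at -0.26 and Filip1l at -0.24), as did 2.78% of all genes. Within high-fat macrophages 0 of 34 were called (0.0251% of all genes), with Myl9 at -0.28 ± 0.13 the 1 gene at an unadjusted p below 0.05, which 3.96% of all genes reached. The difference between those responses was called by limma for 0 of 34 genes (0% of all genes), and 1 had an unadjusted p below 0.05 (Filip1l, 0.40 ± 0.14), against 3.6% of all genes. Here the intervals were wider, from -1.03 (Ajuba) to 0.73 (Cnn1), and 25 of 34 lay inside a 1.5-fold difference.

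**Figure D4:**
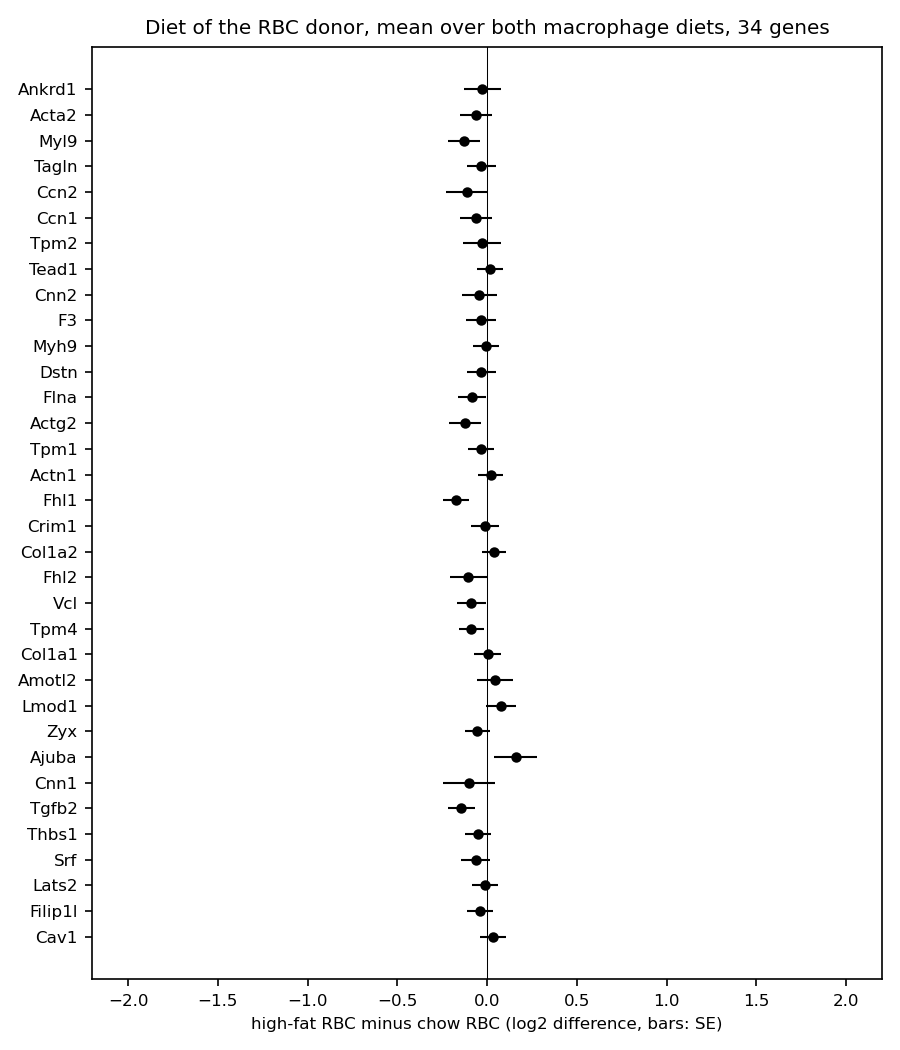
The log2 difference between macrophages given high-fat and chow RBC, averaged over both macrophage diets, is plotted for the 34 genes (rows, in the order of their macrophage-diet difference) with standard-error bars. All points lie close to 0, from -0.17 for Fhl1 to 0.16 for Ajuba, on an axis wide enough for the averaged macrophage-diet differences.

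The genes around these targets were taken from lists of pathway members, chosen with earlier results of these data known. Of 34 measured further SRF and YAP targets (36 listed) 11 were higher and 2 lower in high-fat macrophages, where 6.92% of all genes were higher and 6.36% lower, and their median was 0.13. Cald1, caldesmon, which regulates actomyosin, was at 0.66, Csrp1, a LIM protein of smooth muscle, at 0.56, cyclin D1 (Ccnd1) at 0.43 and talin (Tln1) at 0.42. Gadd45b, a stress-response gene, at -0.81 and Itga5, the fibronectin receptor chain, at -0.21 were lower. In chow macrophages with RBC 13 were higher, among them Cald1 (1.46), Csrp1 (0.88) and Ccn4 (0.76), and Gadd45b was lower (-1.09), against 8.22% and 4.51% of all genes. In high-fat macrophages 1 was higher (Ccn4, 0.49), against 0.878% of all genes. Leaving out either array of the unexposed chow group brought the count of 13 to 7. Leaving out replicate 2 of the unexposed high-fat group brought the count of 1 to 7, and 6 other arrays brought it to 0.

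Of 26 genes of TGF-beta signalling and matrix 8 were higher and 3 lower in high-fat macrophages on average (6.92% and 6.36% of all genes), with a median of 0.05. Biglycan (Bgn), a small matrix proteoglycan, was at 0.65, Ltbp2, a latent TGF-beta binding protein, at 0.49 and Sparc, a matricellular protein, at 0.42. Tgfbi, a TGF-beta induced adhesion protein, at -0.77, the collagen crosslinker Lox at -0.31 and Skil, a SMAD corepressor, at -0.26 were lower. With RBC 8 were higher and 1 lower in chow macrophages (8.22% and 4.51% of all genes), led by Bgn (1.54), Sparc (1.12) and tenascin C, Tnc (1.03), with Tgfbi lower (-0.76). In high-fat macrophages, where 0.878% of all genes were higher, 4 were: Tgfbi (0.94), Lox (0.86), Tnc (0.63) and Skil (0.47). Without replicate 2 of the unexposed chow group 5 of this list were higher with RBC in chow macrophages, and without replicate 1 of that group 5 were higher between macrophage diets. Neither of these lists had a member called for the diet of the RBC donor, averaged over macrophage diets.

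Many of the 34 genes are products of fibroblasts, smooth muscle and platelets, so the markers of these cells were read on the same arrays. In a culture measured whole, more cells of a type and more RNA per cell cannot be told apart. Fibroblast and mesothelial markers (14 of 14 measured) had a mean signal of 5.47 to 5.67 on all 12 arrays, and none was called with RBC in the average of the macrophage diets. In chow macrophages Wt1 (0.47) and Dcn (0.38) were higher with RBC. In high-fat macrophages Pdgfra was lower with RBC (-0.42), and between macrophage diets Pdgfra was higher (0.34) and Pdpn lower (-0.21). Smooth muscle and pericyte markers (8 of 8) had a mean of 4.82 to 4.99. Myh11, the smooth muscle myosin, lay between 4.94 and 5.12 on every array, while desmin (Des, 1.04) and smoothelin (Smtn, 0.58) were higher with RBC in chow macrophages. Des (0.81) and Smtn (0.40) were also called in the average of the macrophage diets, where 5.23% of all genes were higher. Des lay at 5.82 and 5.75 in unexposed chow, at 6.03 and 6.87 in unexposed high-fat and at 6.75 to 7.16 in exposed macrophages. Smtn is also one of the further SRF and YAP targets above, and Col3a1 is on both the fibroblast and the matrix list. Endothelial markers (7 of 7) had a mean of 4.38 to 4.54, none was called with RBC, and Vwf was higher in high-fat macrophages (0.76). Detection calls were not used here, so whether any marker was at background is unknown, and the part of such cells in the results was not tested.

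Of 8 measured platelet markers (12 listed) 5 were higher with RBC in the average, where 5.23% of all genes were, with the chemokine Ppbp at 3.82 in chow and 5.06 in high-fat macrophages. The platelet mean was 5.94 and 5.97 in unexposed chow, 5.73 and 5.54 in unexposed high-fat and 6.50 to 6.98 on the exposed arrays. Itga2b, Treml1 and Pf4 were not called with RBC in the average. Pf4 (-0.06 with RBC) lay at 10.92 and 10.87 in unexposed chow macrophages and was lower in high-fat than in chow macrophages (-1.14). Of 8 neutrophil markers 5 were higher in the average, with S100a9 at 5.24 and 6.28, and their mean was 5.31 on both unexposed chow arrays, 5.18 and 5.05 on the unexposed high-fat arrays and 6.24 to 6.62 on the exposed ones. The difference with RBC was greater in high-fat macrophages by 1.04 for S100a9, past the threshold of limma's interaction term. The markers did not share a direction in this. For the 8 platelet markers it was 1.24 (Ppbp), 0.59 (Alox12), 0.41 (Gp5), 0.25 (Pf4), 0.11 (Itga2b), 0.09 (Treml1), -0.14 (Gp9) and -0.40 (Clec1b), and none passed. The neutrophil marker Mmp8 lay at 6.96 and 6.63 in unexposed chow and 8.02 to 8.31 in exposed chow macrophages. In high-fat macrophages it lay at 6.45 and 6.70 without RBC and at 6.89 to 7.19 with RBC. The part of these cells in the exposure differences of the 34 genes was not tested.

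Of the other marker lists, erythroid markers (5 of 9 measured) had 2 higher with RBC in the average, Alas2 (1.09) and Bpgm (0.66), against 5.23% of all genes. B cell markers (3 of 4) were all lower with RBC in chow macrophages, where 4.51% of all genes were. All were also lower in high-fat than in chow macrophages, with a median of -1.19, against 6.36% of all genes. Of 9 macrophage markers 1 was higher and 3 were lower with RBC in chow macrophages, against 8.22% and 4.51% of all genes. In high-fat macrophages 1 was higher with RBC, as were 0.878% of all genes. Between macrophage diets Itgam was higher (0.21) and Cd14 (-1.04), Adgre1 (-0.69), Timd4 (-0.37) and Csf1r (-0.35) were lower. Of all genes 6.92% were higher and 6.36% lower between the diets. The mean of the macrophage markers was 9.34 to 9.44 in chow and 9.06 to 9.26 in high-fat macrophages. The part of these lists in the results was not tested.

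**Figure D5:**
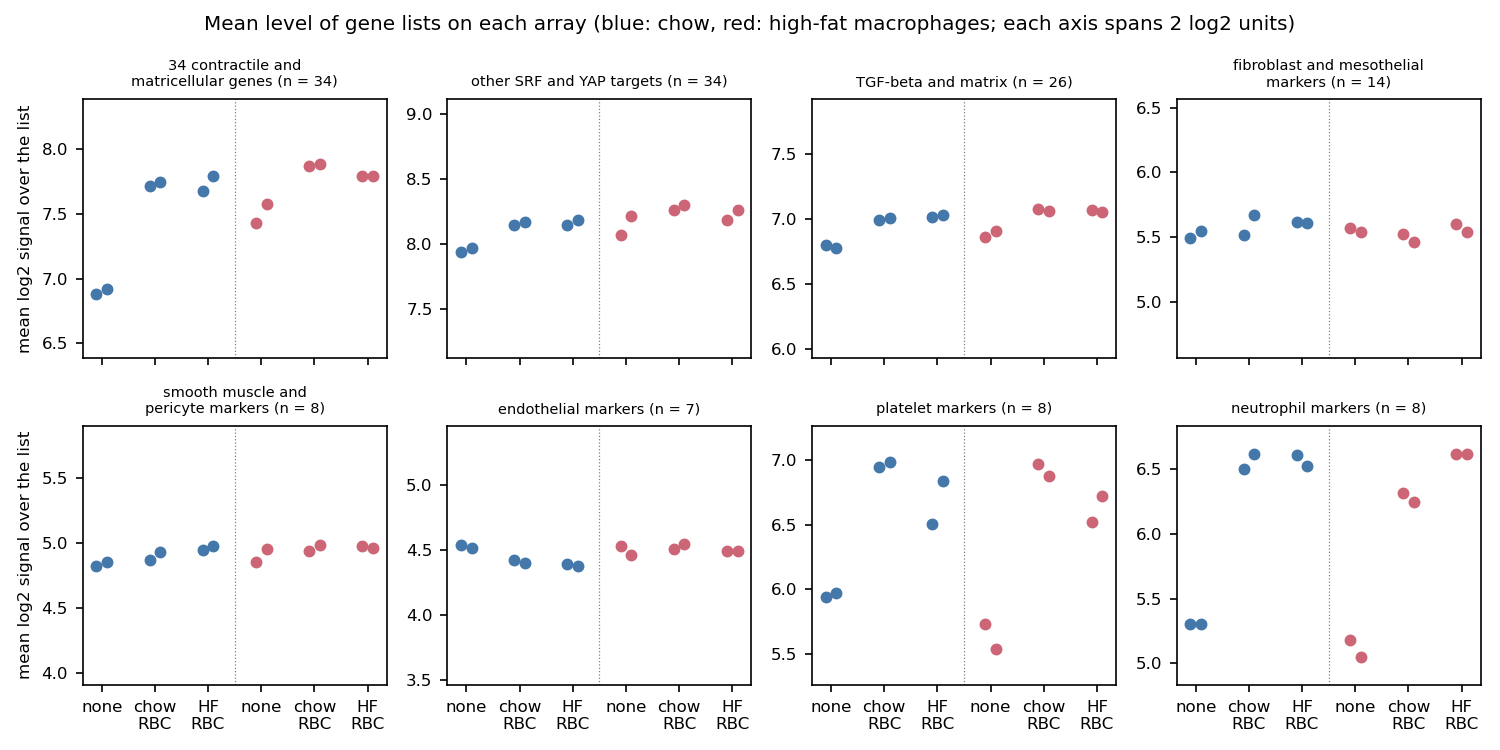
Each dot is the mean log2 signal of a gene list on 1 array, by RBC condition (horizontal axis) and macrophage diet (blue chow, red high-fat); every panel spans 2 log2 units. The 34 genes are lowest in unexposed chow macrophages (6.88 and 6.92) and intermediate in unexposed high-fat macrophages (7.43 and 7.57). The means of fibroblast, smooth muscle and endothelial markers stay nearly level (5.47 to 5.67, 4.82 to 4.99 and 4.38 to 4.54). The smooth muscle mean does not show that Des and Smtn of that list were higher with RBC in chow macrophages. The means of platelet and neutrophil markers are low on all 4 unexposed arrays. They do not show that Pf4 of the platelet list lay at 10.92 and 10.87 in unexposed chow macrophages and was not called with RBC.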

How the data were processed

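RNA of each culture was extracted on silica columns, amplified with a whole-transcriptome kit made for degraded RNA and hybridised to 1 array, per the labels' protocols. The authors deposited a table with 1 log2 signal for each probe set on each array. Its summarization, normalization and log base are not given in the sources used here, and base 2 was inferred from how far the signals range. Raw intensities and detection calls were not used here, so signal over background is unknown.

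Of 35557 probe sets 35556 had values, 23410 were listed in the probe annotation, and the 21789 with 1 gene symbol were kept, while 1621 with several symbols were left out. Where a gene had several probe sets (999 genes) the brightest by mean signal stood for it, giving 19938 genes, and low signals were kept. Group means were estimated jointly from the 12 arrays by limma (version 3.58.1, R 4.3.3) with lmFit and eBayes, on 6 residual and 7.69 prior degrees of freedom. Each contrast was adjusted by Benjamini-Hochberg on its own, and the call threshold was 0.05.

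The 34 genes, the pathway and marker lists and the tests were chosen with earlier results of these data known. Tests are given for contrasts orthogonal to those seen in choosing the genes. The levels of the 6 genes named first were known in both macrophage diets. The macrophage-diet tests are therefore not independent of the choice, and their p is not given for those 6 genes. Values on every array are given for the 6 genes named first, for genes called in a tested contrast and for Cnn1, Fhl2, Col1a1 and Zyx. Ajuba and the other remaining genes are given by their range. In the pathway lists the called genes with the largest differences are named. A further list of pathway genes is not reported here. Deviations of arrays with the same animal number from their group means correlated above 0.1 in 2 of 15 pairs of groups. The highest correlation, 0.34, was between high-fat macrophages without RBC and with high-fat RBC. With 2 arrays per group this cannot settle whether the animal numbers pair the arrays. The procedure was tested on simulated data. Promoter windows were 250 bases long and came from RefSeq on GRCm38.p6.

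Alternatives were a 1.5-fold minimum, quantile normalization, removal of the lowest 33.3% of genes, an intensity trend with robust variance, the animal number as a block, averaging probe sets per gene, only the arrays compared, and leaving out each array.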

Additional observations from a re-analysis of the deposited data

Results flagged for a closer look

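The difference with RBC was set against the macrophage diet for each gene, and 15 of the 34 genes are given here because the 2 differences lay past the threshold of limma's interaction term from each other (2 arrays per group). The genes were chosen partly on this contrast, so the values are a description and nothing is read from their number. Of all genes 2.57% had a higher and 3.1% a lower response in high-fat macrophages past the threshold. As high-fat minus chow response, the difference was -2.02 for Myl9, -1.79 for Acta2, -1.52 for Ankrd1, -1.42 for Tpm2, -1.40 for Ccn2 and -1.36 for Tagln. It was -1.18 for Actg2, -1.08 for Ccn1, -1.05 for Tead1, -0.65 for Col1a2, -0.61 for Tpm1, -0.56 for Dstn and -0.54 for Col1a1. In Cav1 (0.87) and Filip1l (0.64) it ran the other way. Groups of 2 arrays were too small for a test of single outlying arrays.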

How the results depend on the processing

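With a 1.5-fold minimum the count of the 34 genes called between macrophage diets changed from 22 to 9, and that with RBC averaged over macrophage diets from 20 to 13. For the other counts and alternatives, leaving out an array aside, the number of genes called stayed within 1.5 times. The counts for RBC-donor diet and for its difference between macrophage diets were 0 under every alternative. Leaving out 1 array gave 20 to 23 genes between macrophage diets, 0 to 0 for RBC-donor diet and its difference between macrophage diets, 19 to 24 with RBC in chow macrophages, 4 to 11 in high-fat macrophages, 19 to 24 in their average and 13 to 16 for the difference between the responses. With the animal number as a replicate block over all groups the counts were 22, 0, 0, 23, 8, 20 and 15 in that order, and with the block within each macrophage diet 23, 0, 0, 23, 9, 20 and 16. Whether the animal numbers pair the arrays was not settled (correlations of -0.23 to 0.34). Of 2001 values of single genes under alternatives, 1908 kept their side of the threshold, 86 lost and 7 gained a call, and 0 changed sign. The number of arrays limits precision, and no depth or background measure was at hand.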
